A study of Danio rerio with 4 samples.

Results

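The mitochondrial ribosome makes the few proteins that the mitochondrial genome encodes, all of them subunits of the respiratory chain or of ATP synthase. Its RNA parts come from the mitochondrial genome, while its proteins come from nuclear genes, are made in the cytosol and are imported. Some of these proteins have counterparts in the bacterial ribosome and others are found only in mitochondria. The growing oocyte multiplies the mitochondria that it hands to the embryo, and in humans variants of the small-subunit gene MRPS22 have been linked to ovarian insufficiency.

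The nuclear genes of these proteins were examined in ovaries of adult zebrafish. Genes were chosen by symbol, as every Ensembl row whose name begins with mrpl or mrps and a digit, letter case ignored. This gave 73 genes of 35066 Ensembl rows, 46 named for the large subunit and 27 for the small subunit. The RefSeq annotation of the GRCz12tu assembly holds 75 such genes. MRPS15 and MRPL22 are in it but have no row among the deposited values, so the family is not complete here. In mammals the products of MRPS18A and MRPS30 sit in the large subunit despite their names. Symbols are printed as the name table gives them, some in capitals and some not. Of the 73 genes, 70 had a locus of their own. The other 3 shared all 4 values with another named gene and cannot be told from it. They were MRPS22 with ECH1, MRPS34 with NME3, and MRPS33 with si:ch211-9f20.4.

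Whole ovaries came from wild-type females of the AB strain, 5 months of age, after 30 days of exposure. There were 4 libraries, 1 per group: dibutyl phthalate (DBP), its branched isomer diisobutyl phthalate (DiBP), both compounds together (combined), and an unexposed control. The labels state no dose. With 1 library per group no difference has a replicate check, no test was possible, and each value compares libraries, not conditions.

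Values were taken as FPKM, a unit that no header or label names. FPKM are fragments scaled by transcript length and by library size, so that levels can be compared between genes. Ratios are log2(FPKM + 1) differences with the exposed library on top, and they understate the difference of low genes. A locus was measured where its mean over the libraries was at least 1 FPKM, which held for 13859 loci. All rows together summed to 512635 to 598063 FPKM per library, and absolute depth is unknown. Oocyte markers fixed for the check of tissue were abundant: 12 of 13 were found, among them h1m, the oocyte linker histone, at 427 to 1889 FPKM, and org at 1326 to 1567 FPKM. NANOS3 was the 1 oocyte marker listed at 0, in the DiBP and combined libraries. The oocyte list summed to 4785, 4701 and 3071 FPKM in the DBP, DiBP and combined libraries and 3941 FPKM in the control. Without h1m the sums were 3332, 2812 and 2643 FPKM against 3410 FPKM in the control. In the DBP library zpax4, bmp15 and GDF9 were below the control, and the other oocyte markers found were above it. The summed levels of markers of other cell types differed between the libraries. The granulosa list (9 loci) summed to 34.2, 32.98 and 23.6 FPKM in the DBP, DiBP and combined libraries and 17.1 FPKM in the control. FSHR, inha and a FOXL2 locus were listed at 0 in the control, and that FOXL2 locus also in the DiBP library. The smooth muscle and vessel list (9 loci) summed to 41.9, 17.5 and 10.6 FPKM against 9.48 FPKM in the control, and the theca and stroma list (8 loci) to 97.2, 53.2 and 83.3 FPKM against 70.1 FPKM. In each of these 3 lists 1 locus held most of the sum. In the DBP library and the control these were SERPINE2 (26.8 and 14.7 FPKM), a TAGLN locus (33.5 and 5.47 FPKM) and a CYP11A1 locus (80.3 and 58.4 FPKM). Vessel markers in that list were mixed. kdrl was below the control in each exposed library, at 0.498, 0.167 and 0.588 FPKM against 1.29 FPKM. cdh5 was at 0.134, 0.234 and 0.144 FPKM against 0.168 FPKM, and the higher CLDN5 locus at 0.806, 2.18 and 1.12 FPKM against 1.15 FPKM. Both were above the control in the DiBP library only. Leukocyte markers summed to 9.56, 7.94 and 5.42 FPKM against 3.40 FPKM in the control. They were mixed in the combined library, where lyz (2.64 against 0.922 FPKM) and the CORO1A locus (1.51 against 0.637 FPKM) made most of the sum. ptprc and laptm5 were also above the control there, while cd74a (0.485 against 1.04 FPKM), cd74b (0.481 against 0.533 FPKM) and LCP1 (0.041 against 0.093 FPKM) were below it. LCP1 was below the control in the DiBP library too, at 0.057 FPKM. Blood cell markers (3 loci) summed to 1.29, 2.01 and 0.238 FPKM against 0.259 FPKM, and liver markers to 0.243, 0.532 and 2.76 FPKM against 0.362 FPKM. The highest blood value was 1.66 FPKM, at hbaa1 in the DiBP library, where hbaa2 was below the control (0.165 against 0.189 FPKM). The sums of the granulosa, smooth muscle and vessel, leukocyte and blood lists were thus higher than control in the DBP and DiBP libraries, where the median of the 73 genes was also higher. The theca and stroma sum was higher than control in the DBP library but lower in the DiBP library, and the liver sum the reverse. Both were higher than control in the combined library. The granulosa, smooth muscle and vessel and leukocyte lists were higher than control in the combined library too, where the median of the 73 genes was lower. The part of these lists in the results was not tested. In whole ovary, fewer cells of a type and less RNA per cell cannot be told apart.

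All 73 genes were measured, none was listed at 0 in any library, and none fell below the filter. Their mean levels over the libraries ran from 8.58 FPKM at MRPS25 to 263 FPKM at mrpl53, with a median of 64.0 FPKM against 8.04 FPKM for all measured loci. Every one of the 73 lay above the median locus, and their median stood at the 90.8th percentile of level. The subunits had like levels, with medians of 66.2 FPKM for the large and 60.2 FPKM for the small subunit.

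Summed over the 73 genes, expression was 5628 FPKM in the DBP library, 5836 FPKM in the DiBP library, 4464 FPKM in the combined library and 4925 FPKM in the control. These sums were 0.983%, 0.976%, 0.871% and 0.922% of the summed FPKM of all rows, in that order. In that total, rows that share all their values count each time, while each member locus counts once, so these shares are understated. The median member was at 66.4 FPKM in the DBP library, 70.5 FPKM in the DiBP library, 53.7 FPKM in the combined library and 60.6 FPKM in the control. Both single-exposure libraries therefore lay above the control and the combined library below it, by small amounts.

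By single genes, the highest of the 4 values was in the DiBP library for 35 members, in the DBP library for 26, in the combined library for 2 and in the control for 10. Among all measured loci those shares were 26.9%, 26.1%, 15.2% and 31.8%. The lowest value was in the combined library for 42 members, in the DiBP library for 12, in the DBP library for 4 and in the control for 15. Among all measured loci the shares were 27.95%, 34.7%, 14.95% and 22.4% in that order. The members' values spread over a median of 0.57 on the log2 scale between their lowest and highest library, against 0.62 for all measured loci and 0.54 for the 6435 loci within the members' range of mean level.

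**Figure D1:**
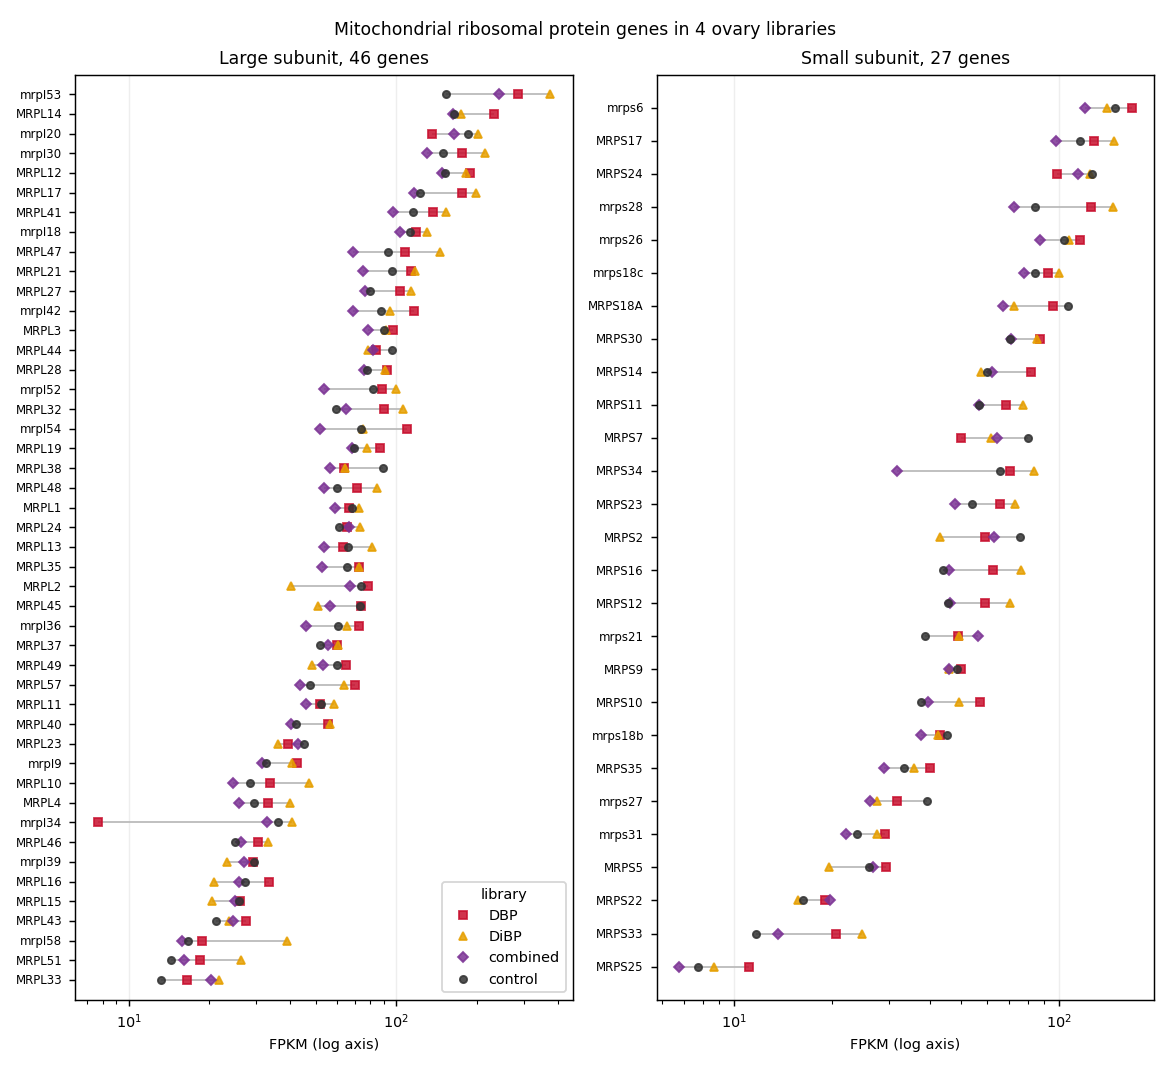
FPKM of each of the 73 genes in the 4 libraries (horizontal log axis), large subunit left and small subunit right, genes ordered by mean level; symbols mark libraries and the grey line joins a gene's lowest and highest value. The highest symbol is the DiBP library for 35 genes and the DBP library for 26, and mrpl34 in the DBP library, at 7.65 FPKM, is the point furthest from the others of its gene.

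The most abundant member was mrpl53, which encodes a large-subunit protein found only in mitochondria. It was at 284 FPKM in the DBP library, 375 FPKM in the DiBP library, 242 FPKM in the combined library and 153 FPKM in the control. It was the 1 member at least 1.5-fold above control in each exposed library, with log2 ratios of 0.89, 1.29 and 0.66, and the 3 ratios share the control value. In the RefSeq annotation of the GRCz12tu assembly its neighbour on one side is fabp4a, a fatty acid carrier, which was at 25.3, 5.65 and 8.79 FPKM in the DBP, DiBP and combined libraries and 1.55 FPKM in the control. Its neighbour on the other side, pag1, was at or below 0.376 FPKM in all 4 libraries. Whether the counting used strand is not given in the sources used here, and a part of reads from a neighbour in the value of mrpl53 was not tested.

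Next in level came MRPL14, a core protein of the large subunit, with 231, 175 and 163 FPKM in the DBP, DiBP and combined libraries and 165 FPKM in the control. For mrpl20, which binds ribosomal RNA early in assembly in bacteria, the values were 135, 201 and 163 FPKM in the DBP, DiBP and combined libraries and 185 FPKM in the control. MRPL12 forms the stalk that recruits translation factors, and it also binds the mitochondrial RNA polymerase. Its levels were 188, 181 and 148 FPKM in the exposed libraries (DBP, DiBP, combined) and 152 FPKM in the control. Among small-subunit genes mrps6 was the most abundant, with 167, 140 and 121 FPKM in the DBP, DiBP and combined libraries and 148 FPKM in the control. The gene mrpl30, of about the level of MRPL12, was at 176, 214 and 130 FPKM in those libraries and 149 FPKM in the control. MRPL41 was at 137, 153 and 96.9 FPKM against 116 FPKM in the control. None of the genes in this paragraph lay 1.5-fold from the control in any exposed library.

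The ovary exposed to DBP was compared with the control first. Of the 73 members 58 had a higher value in the DBP library and 15 a lower one, with a median log2 ratio of 0.23, against 0.01 for all loci. Few single genes stood far from the control: 4 members exceeded it by at least 1.5-fold and 2 lay at least 1.5-fold under it. Of all loci, 12.2% lay that far above the control and 10.4% that far below, and in the members' range of level the shares were 8.67% and 8.75%. Members past that fold were thus scarcer than loci in general, while their median lay above that of all loci. Past 2-fold were 0 members on the high side and 1 on the low side (all loci: 4.81% and 3.31%). With all libraries scaled to equal summed FPKM 2 members were 1.5-fold higher and 2 lower (all loci: 10.38% and 12.69%).

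The 4 higher members after DBP were mrpl53 (described above), MRPS33, MRPS10 and MRPL32. MRPS33, a small-subunit protein found only in mitochondria, was at 20.6 FPKM in the DBP library and 11.7 FPKM in the control (log2 ratio 0.77), a value it shares with si:ch211-9f20.4. MRPS10 has a counterpart in the head of the bacterial small subunit and was at 57.2 FPKM in the DBP library against 37.5 FPKM in the control (log2 ratio 0.60). MRPL32, whose product is trimmed by a protease of the inner mitochondrial membrane before assembly in yeast and mouse, was at 89.9 FPKM against 59.3 FPKM in the control (log2 ratio 0.59).

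The 2 lower members after DBP were mrpl34 and MRPS7. The small rRNA-binding protein gene mrpl34 was at 7.65 FPKM in the DBP library, against 40.7 FPKM in the DiBP library, 32.9 FPKM in the combined library and 36.1 FPKM in the control. That value, a log2 ratio of -2.10, was the largest distance from control of any member in any library, and the other 3 libraries lay close together. The neighbour of mrpl34 in the RefSeq annotation, trnau1apb, showed no such gap, at 6.20, 3.65 and 5.23 FPKM in the DBP, DiBP and combined libraries and 6.29 FPKM in the control. MRPS7, which nucleates assembly of the head of the small subunit in bacteria, was at 50.1 FPKM in the DBP library and 80.0 FPKM in the control (log2 ratio -0.67).

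The DiBP library was compared with the same control. Of the 73 members 53 had a higher value and 20 a lower one, and the median log2 ratio was 0.21, against -0.06 for all loci. At least 1.5-fold higher values were seen at 12 members and at least 1.5-fold lower ones at 2, where 15.7% of all loci were higher by that much and 18.1% lower. The share of members that were higher, 16.4%, was thus near the background, and the share that were lower, 2.74%, was below it. Loci in the members' range of level gave 11.6% higher and 16.8% lower. At 2-fold the counts were 3 higher and 0 lower (all loci: 7.25% and 7.04%). Scaled to equal summed FPKM, 8 members were 1.5-fold higher and 5 lower, so these counts depend on the scaling. Of all loci 12.94% were higher and 22.68% lower at that scaling, so lower members remained scarcer than lower loci in general.

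The 3 members at least 2-fold higher in the DiBP library were mrpl53, mrpl58 and MRPS33. mrpl58 encodes a peptidyl-tRNA hydrolase built into the large subunit, which frees chains from stalled ribosomes. It was at 39.2 FPKM in the DiBP library, against 18.9 FPKM in the DBP library, 15.8 FPKM in the combined library and 16.7 FPKM in the control. Only the DiBP library stood apart for this gene, with a log2 ratio of 1.18 against control. MRPS33 was at 24.8 FPKM in the DiBP library and 11.7 FPKM in the control (log2 ratio 1.02).

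Between 1.5-fold and 2-fold were 9 more genes. MRPL10, which anchors the stalk, was at 47.3 FPKM in the DiBP library and 28.4 FPKM in the control (log2 ratio 0.72), whereas its stalk partner MRPL12 had a log2 ratio of 0.25. MRPL32 was at 106 FPKM in the DiBP library against 59.3 FPKM in the control, and MRPL17, a large-subunit core protein, at 198 FPKM against 122 FPKM. MRPL33 was at 21.7 FPKM in the DiBP library and 13.3 FPKM in the control, MRPL51 at 26.3 and 14.4 FPKM, and MRPL47 at 145 and 93.1 FPKM. In the small subunit MRPS12, a protein of the decoding centre, was at 70.5 FPKM in the DiBP library and 45.5 FPKM in the control. MRPS16, a gene of mitochondrial disease in humans, was at 76.2 FPKM against 44.0 FPKM in the control. For mrps28 the values were 147 FPKM in the DiBP library and 84.5 FPKM in the control.

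MRPL2 and MRPS2 were the 2 members at least 1.5-fold lower after DiBP. The protein of MRPL2 lies close to the peptidyl transferase centre, and the gene was at 40.2 FPKM in the DiBP library, against 78.3, 67.2 and 73.8 FPKM in the DBP, combined and control libraries. Its log2 ratio against control was -0.86, and the other 3 libraries lay close together. MRPS2, of the small-subunit body, was at 42.9 FPKM in the DiBP library and 75.9 FPKM in the control (log2 ratio -0.81). In the DBP and combined libraries MRPS2 was at 59.0 and 63.1 FPKM, between those values.

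In the library exposed to both compounds the 73 genes lay close to the control and mostly a little below it. Of them 18 had a higher and 55 a lower value than in the control, with a median log2 ratio of -0.13, against -0.08 for all loci, which was the same direction. At least 1.5-fold higher was 1 member and at least 1.5-fold lower were 4, against 7.78% and 10.04% of all loci, and 3.29% and 6.68% of those in the members' range of level. At 2-fold 0 members were higher and 1 lower (all loci: 3.48% and 3.23%). With median-of-ratios scaling 3 members were 1.5-fold higher and 1 lower (all loci: 9.005% and 8.269%). The median was then -0.04, against -0.002 for all loci.

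MRPS34, whose loss causes mitochondrial disease in humans, lay furthest below the control. The locus it shares with NME3, a nucleoside diphosphate kinase gene and its RefSeq neighbour, was at 31.8 FPKM in the combined library, 70.4 FPKM in the DBP library, 83.5 FPKM in the DiBP library and 66.0 FPKM in the control. The combined library was the 1 low value, with a log2 ratio of -1.03 against control, and which of the genes it belongs to cannot be told. MRPS18A was at 67.1 FPKM in the combined library and 106 FPKM in the control (log2 ratio -0.66), with 95.5 FPKM in the DBP library and 72.7 FPKM in the DiBP library. MRPL38, of the central protuberance of the large subunit, was at 56.4 FPKM in the combined library against 89.0 FPKM in the control (log2 ratio -0.65). The gene mrpl52 was at 53.7 FPKM in the combined library and 81.8 FPKM in the control (log2 ratio -0.60). The 1 higher member was mrpl53, already given. MRPL33, at 20.3 FPKM in the combined library and 13.3 FPKM in the control, differed by 1.53-fold in FPKM but fell just short of 1.5-fold on the log2(FPKM + 1) scale, with a ratio of 0.58.

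**Figure D2:**
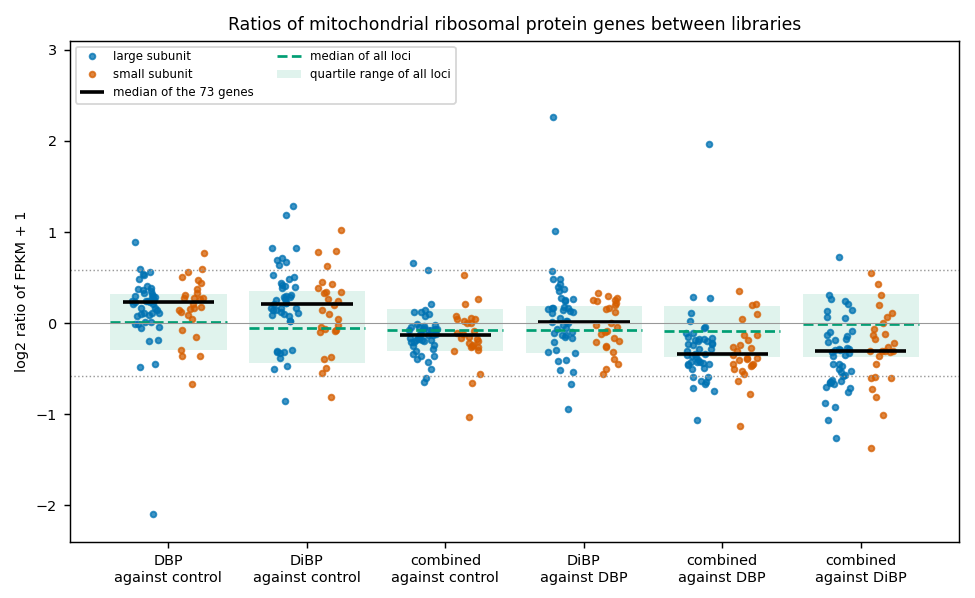
Log2 ratio of FPKM + 1 for each of the 73 genes (points, large subunit blue and small subunit orange) in the 6 comparisons of libraries, with the median of the 73 (black bar), the median of all 13859 loci (dashed line), the quartile range of all loci (shaded) and 1.5-fold either way (dotted lines). The black bar stands at 0.23 and the dashed line at 0.01 for DBP, at 0.21 and -0.06 for DiBP, and at -0.13 and -0.08 for the combined library, each against control.

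The isomers can be compared at 1 time, 30 days, but whether their doses matched is unknown and there is no test or interval. DBP and DiBP differ in the branching of their butyl chains. Over the 73 genes the median log2 ratio of DiBP against DBP was 0.01, against -0.08 for all loci, with 39 members higher in the DiBP library and 34 lower. Its sign turns with the scaling, to -0.03 at equal summed FPKM. At least 1.5-fold apart were 2 members higher in the DiBP library, mrpl34 and mrpl58, and 2 lower, MRPL2 and MRPL16, whose product lies near the peptidyl transferase centre. Of all loci 9.06% were higher and 11.3% lower by that much. MRPL16 was at 20.8 FPKM in the DiBP library and 33.5 FPKM in the DBP library (log2 ratio -0.66), with 25.9 FPKM in the combined library and 27.3 FPKM in the control. For mrpl34, mrpl58 and MRPL2 a single library departs from the other 3, while for MRPL16 the combined library and the control lie between the isomers. None of the 27 small-subunit genes lay 1.5-fold apart between the isomers, and their log2 ratios ran from -0.56 at MRPS5 to 0.33 at MRPS24.

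Set against the single exposures, the combined library was lower for most members. Against DBP the median log2 ratio was -0.34 (all loci: -0.09), with 10 members higher and 63 lower. At least 1.5-fold higher was 1 member and at least 1.5-fold lower were 11, where all loci gave 7.62% and 13.4%. Against DiBP the median was -0.30 (all loci: -0.01), with 15 members higher and 58 lower. In that comparison 1 member exceeded 1.5-fold upward and 21 downward, or 28.8% of members, where 12.6% of all loci were higher and 15.4% lower. These counts move with the scaling: 5 members were lower than in the DBP library and 8 lower than in the DiBP library at equal summed FPKM, where the medians were -0.23 and -0.15 and those of all loci 0.01 and 0.12. Of all loci 10.2% and 11.7% were lower at that scaling, so the 8 of 73 members lower than in the DiBP library were near the background.

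**Figure D3:**
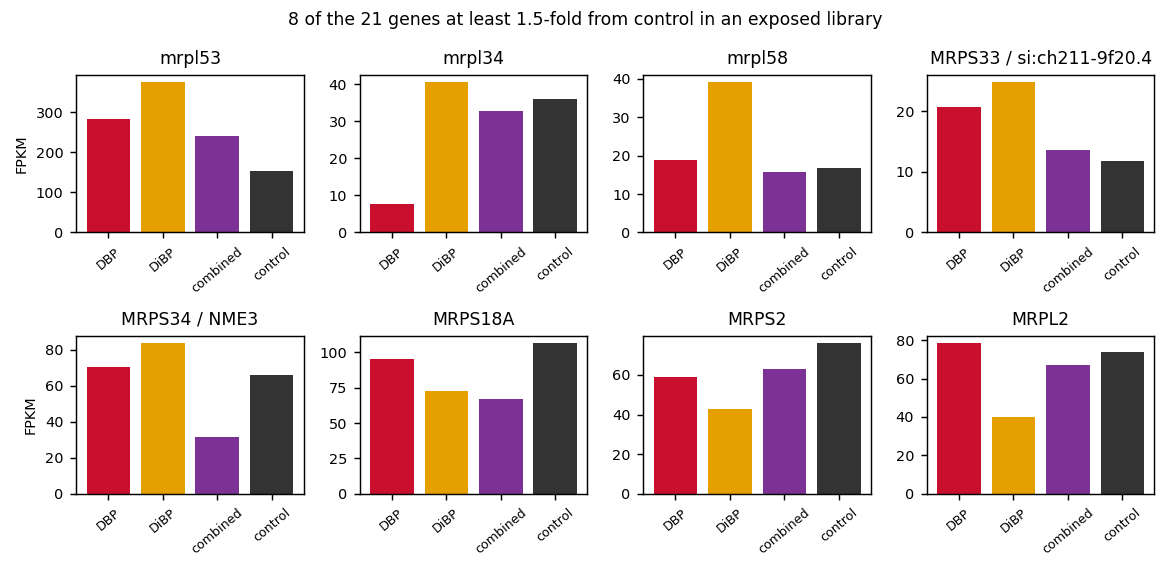
FPKM (vertical axes from 0, each panel with its own scale) in the 4 libraries for 8 of the 21 genes that lay at least 1.5-fold from control in an exposed library. A single library departs from the other 3 in mrpl34 (DBP, 7.65 FPKM), mrpl58 and MRPL2 (DiBP, 39.2 and 40.2 FPKM) and MRPS34 with NME3 (combined, 31.8 FPKM), while mrpl53 is above control in all 3 exposed libraries.

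Across the set, 21 of 73 members were at least 1.5-fold from control in at least 1 exposed library (28.8%), against 46.0% of all loci. All 73 lay above the median locus in level, and this share was not computed for loci in their range of level. The median log2 range between libraries was 0.57 for the members and 0.54 for loci in that range. The most even member was MRPS9, a small-subunit protein with a bacterial counterpart, at 50.1, 45.9 and 45.8 FPKM in the DBP, DiBP and combined libraries and 48.7 FPKM in the control. MRPL37, found only in mitochondria, was nearly as even, at 59.8, 60.6 and 55.4 FPKM in the DBP, DiBP and combined libraries and 51.8 FPKM in the control. MRPS22, in the locus shared with ECH1, stayed between 15.8 and 19.7 FPKM. Their log2 ranges were 0.13, 0.22 and 0.31.

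Large- and small-subunit genes gave like medians. In the DBP library they were 0.23 for the large and 0.21 for the small subunit, in the DiBP library 0.22 and 0.15, and in the combined library -0.13 and -0.15. Members with a bacterial counterpart, 41 by the list drawn up at the outset, had medians of 0.17, 0.17 and -0.12 in the DBP, DiBP and combined libraries, and the other 32 had 0.25, 0.25 and -0.16. That list had left out MRPL47, mrps21, MRPS24 and mrps28, which also have bacterial counterparts. Once they were moved, the medians were 0.17, 0.21 and -0.12 for 45 members and 0.25, 0.21 and -0.16 for 28. By level, the 25 most abundant members had medians of 0.23, 0.25 and -0.19 and the 25 least abundant 0.26, 0.17 and -0.07 in the same order. No subgroup gave a median of opposite sign to the whole set in these 3 comparisons.

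Functional neighbours within the ribosome did not all share a pattern. In the central protuberance, MRPL38 was below control in all 3 exposed libraries at 63.6, 64.1 and 56.4 FPKM (DBP, DiBP, combined) against 89.0 FPKM. Its partner MRPL48 was at 71.1, 84.7 and 53.5 FPKM against 60.0 FPKM in the control, and MRPL40 at 55.5, 56.3 and 40.4 FPKM against 42.2 FPKM. Around the exit tunnel, MRPL23 was at 39.5, 36.1 and 42.8 FPKM in the exposed libraries and 45.1 FPKM in the control, whereas MRPL24 was at 65.4, 73.3 and 66.3 FPKM against 60.8 FPKM. MRPL45, which tethers the ribosome to the inner membrane, was at 73.5, 51.0 and 56.4 FPKM in the DBP, DiBP and combined libraries, with log2 ratios against control of 0.01, -0.51 and -0.37.

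One pair of members stands side by side in the RefSeq annotation, MRPS11 and MRPL46, one from each subunit. MRPS11 was at 68.9, 77.5 and 56.7 FPKM in the DBP, DiBP and combined libraries and 56.6 FPKM in the control. MRPL46 was at 30.5, 33.03 and 26.4 FPKM in the same libraries and 25.03 FPKM in the control. Both had their highest value in the DiBP library, as had 35 of the 73 members, and their lowest in the control. For MRPS11 the combined library and the control were nearly equal.

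Lists of the other mitochondrial translation genes had medians closer to those of all loci (0.01, -0.06 and -0.08 for DBP, DiBP and combined against control) in the DBP library. The counts of these lists are to be read against the shares of all loci at least 1.5-fold higher and lower, which were 12.2% and 10.4% for DBP, 15.7% and 18.1% for DiBP, and 7.78% and 10.04% for the combined library. A list of 6 further genes, 5 ribosomal proteins that carry other names and OXA1L, the insertase that receives the nascent chain, had medians of 0.07, 0.07 and -0.12 in the DBP, DiBP and combined libraries. Of these 0 were at least 1.5-fold higher and 1 lower after DBP, 1 higher and 1 lower after DiBP, and 0 higher and 1 lower in the combined library. The lower gene each time was AURKAIP1, at 82.7, 72.2 and 77.7 FPKM in the exposed libraries and 131 FPKM in the control. DAP3, a GTP-binding protein of the small subunit, was at 52.8, 50.9 and 45.8 FPKM against 51.4 FPKM in the control, and chchd1 at 41.5, 59.3 and 35.97 FPKM against 38.0 FPKM.

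For 30 genes of ribosome assembly and rRNA modification the medians were 0.03, -0.08 and -0.13 in the DBP, DiBP and combined libraries. At least 1.5-fold higher and lower were 1 and 0 of them after DBP, and 4 and 6 after DiBP, near the background. In the combined library the counts were 0 and 4. Among the 4 higher after DiBP was a locus that mterf3 shares with RAD21, si:dkey-231l1.12 and UQCRB, from which it cannot be told. In the same list fastkd2 shares its values with GTF3C3 and MTERF4 with pask. The highest ratio after DBP and after DiBP was that of malsu1, which keeps the subunits from joining too early, at 67.8 FPKM in the DBP library, 97.3 FPKM in the DiBP library, 36.6 FPKM in the combined library and 37.9 FPKM in the control. TFB1M, which methylates the small ribosomal RNA, was at 12.1 FPKM in the DBP library, 7.02 FPKM in the DiBP library, 3.40 FPKM in the combined library and 11.5 FPKM in the control. METTL15, which also methylates that RNA, was the lowest after DiBP, at 4.36 FPKM against 12.7 FPKM in the control.

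Translation factors, 16 loci of 17 genes listed, had medians of 0.06, 0.05 and -0.13 in the DBP, DiBP and combined libraries. At least 1.5-fold higher and lower were 2 and 1 after DBP, 2 and 3 after DiBP, and 1 and 0 in the combined library. The initiation factor gene mtif3 was at 12.9, 7.91 and 13.9 FPKM in the DBP, DiBP and combined libraries and 3.87 FPKM in the control. GATB, a subunit of the enzyme that charges the mitochondrial glutamine tRNA, was at 80.7, 6.51 and 58.3 FPKM against 78.0 FPKM in the control. taco1, which aids translation of a cytochrome oxidase subunit, was at 25.7, 1.35 and 16.5 FPKM against 24.3 FPKM. These were the lowest ratios of the list after DiBP, -3.43 for taco1 and -3.39 for GATB, and in both genes the DiBP value stands far under the other 3. TUFM, the elongation factor, was at 115, 87.8 and 107 FPKM against 129 FPKM.

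Among 16 measured mitochondrial tRNA synthetase loci, a list in which GARS1 and KARS1 also serve the cytosol, the medians were -0.13, -0.30 and -0.19. None was at least 1.5-fold higher in an exposed library, and 4, 5 and 2 were lower in the DBP, DiBP and combined libraries. The cars2 locus shares its values with IRS2, si:ch211-198k9.6 and si:ch211-198k9.9. LARS2, the leucine enzyme, was at 6.79, 3.96 and 8.22 FPKM in the DBP, DiBP and combined libraries and 14.9 FPKM in the control. The 8 loci that copy and transcribe the mitochondrial genome had medians of 0.07, -0.33 and -0.17. TFAM, which packages mitochondrial DNA, was at 23.2, 23.3 and 13.8 FPKM in the exposed libraries and 19.3 FPKM in the control. POLG, the mitochondrial DNA polymerase, had the lowest ratio of the list in each exposed library, at 3.41, 1.63 and 1.84 FPKM against 5.90 FPKM.

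Transcripts of the mitochondrial genome itself, which this ribosome translates, differed by far more than the transcripts for its proteins in the DBP library. The 10 mitochondrially encoded loci had a median log2 ratio of 1.58 there, against 0.23 for the ribosomal protein genes, and 0.46 in the DiBP and -0.13 in the combined library. At least 1.5-fold higher and lower were 8 and 0 of the 10 after DBP, 4 and 0 after DiBP, and 3 and 2 in the combined library. Of all loci the shares were 12.2% and 10.4%, 15.7% and 18.1%, and 7.78% and 10.04% in that order. MT-ND1, a subunit of complex I, had the highest ratio after DBP and after DiBP, at 584, 310.2 and 180.4 FPKM in the DBP, DiBP and combined libraries and 89.8 FPKM in the control. The locus that MT-ATP6 shares with mt-atp8 and MT-CO3 had the lowest ratio in each exposed library, 0.29, -0.26 and -0.65.

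Genes for the proteins of the cytosolic ribosome had medians of the same sign as the mitochondrial ones in each comparison with control. Their 76 loci had medians of 0.29, 0.43 and -0.25 in the DBP, DiBP and combined libraries, set beside 0.23, 0.21 and -0.13 for the mitochondrial ribosomal proteins. The distance was widest in the DiBP library, where 30 of 76 cytosolic loci exceeded the control by 1.5-fold and 0 lay that far under it. Of the 73 mitochondrial ones 12 and 2 did so, and of all loci 15.7% and 18.1%. The higher share of the mitochondrial ones, 16.4%, was near that of all loci. RPL29, of the large cytosolic subunit, had the highest ratio there, 2.22, at 676 FPKM in the DiBP library and 144 FPKM in the control. In the DiBP against DBP comparison the cytosolic median was 0.23 and the mitochondrial one 0.01. The h1m transcript, at 1453, 1889 and 427 FPKM in the DBP, DiBP and combined libraries and 531 FPKM in the control, was higher than control in the DBP and DiBP libraries and lower in the combined one, as the medians of both sets were. The same held for zp3c, at 413, 451 and 284 FPKM in the DBP, DiBP and combined libraries and 407 FPKM in the control. Likewise placed were buc, at 168, 220 and 112 FPKM against 159 FPKM, and BTG4, at 240.5, 159 and 83.6 FPKM against 111 FPKM. The remaining oocyte markers that were found differed from h1m. Among them zpax4 was at 684, 479.7 and 658 FPKM in the exposed libraries and 963 FPKM in the control. The sum of the oocyte list without h1m was below the control in all 3 exposed libraries. In the DBP library zpax4 made the widest gap, and bmp15 (94.9 against 106 FPKM) and GDF9 (23.0 against 26.2 FPKM) were also lower. The other oocyte markers found were higher than control in the DBP library. The part of these markers in the results was not tested.

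**Figure D4:**
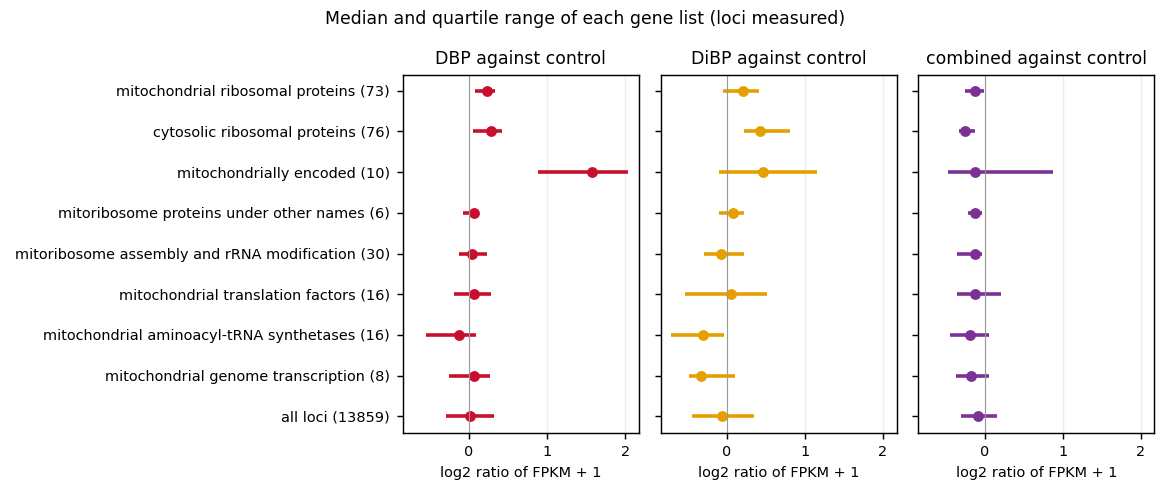
Median (point) and quartile range (line) of the log2 ratio of FPKM + 1 against control for the 73 mitochondrial ribosomal protein genes, related gene lists and all loci, 1 panel per exposed library, with the number of loci in parentheses. The mitochondrially encoded loci stand at 1.58 in the DBP panel, and the cytosolic and mitochondrial ribosomal proteins lie at 0.43 and 0.21 in the DiBP panel.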

How the data were processed

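Values, taken as FPKM, are as the authors deposited them, 1 table per library, with 49610 rows each, of which 35066 carry an Ensembl identifier. The unit stands in no header and was judged from the values. HISAT2, HTSeq 0.6.1 and the build GRCz10 appear in the submitters' processing notes with no order or settings. Per the file headers, 2 of the tables (DiBP and combined) use column names that match no label, so each was assigned by the record that links files to samples.

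Symbols came from a table of identifiers, which named 26996 Ensembl rows. Rows above 0 with identical values in all libraries were collapsed, leaving 35253 loci, of which 13859 had a mean of at least 1 FPKM. Log2 ratios used a pseudocount of 1 FPKM and the deposited scaling. Folds of 1.5 and 2 on that scale stand in for a test. Neighbours were read from RefSeq genes of the GRCz12tu assembly, in which all 73 symbols were found, and only their order was used. Cytosolic ribosomal proteins and mitochondrially encoded genes were taken by symbol pattern.

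Named were members past 1.5-fold (at most 8 each way in each comparison with control and between the isomers; a 9th to 12th after DiBP was added once values were seen), the most abundant members, those sharing values, and some of the genes with the highest or lowest ratio in each related list; other genes of those lists were chosen after their values were seen. Other members were chosen after their values were seen, for their place in the ribosome or in the genome or for even levels. The genes and lists were chosen with earlier results of these data known. Promoter and protein sequences were not used here. Alternatives were the pseudocount, the filter, 3 scalings and leaving out merged loci. The code was tested on simulated data. Python 3.11.15, numpy 2.4.6, pandas 2.3.3 and matplotlib 3.10.9 were used.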

Additional observations from a re-analysis of the deposited data

How the results depend on the processing

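No paired analysis was possible because each group has 1 library and no test was made. The 18 medians and counts were recomputed under 8 alternatives, giving 144 values, of which 41 of 48 medians moved by less than 0.1 (log2) and kept their sign, and 79 of 96 counts stayed within 1.5 times. The filter at 5 FPKM, no filter, leaving out merged loci and leaving out symbols on more than 1 row changed none beyond those limits. The filters could change no value of the members, whose lowest mean was 8.58 FPKM, and only 3 members shared their values with another gene. Those settings are part of the totals above, which therefore overstate how far the results were tried. A pseudocount of 0.1 FPKM gave 2 members higher in the combined library than in the control (all loci: 10.89%). Median-of-ratios scaling gave 3 higher and 1 lower there, 1 lower for DiBP against DBP and 5 lower for combined against DBP. Of all loci 9.005% were higher and 8.269% lower there, 9.193% lower for DiBP against DBP and 10.53% lower for combined against DBP. At equal summed FPKM the median was 0.0917 for DiBP against control, -0.0305 for DiBP against DBP (a change of sign), -0.23 for combined against DBP and -0.15 for combined against DiBP. At that scaling 2 members were higher for DBP against control (all loci: 10.38%) and 5 lower for DiBP against control (all loci: 22.68%). Combined against control had 2 higher, combined against DBP 5 lower, and combined against DiBP 2 higher and 8 lower. Without the 50 most abundant loci in that sum, 2 were higher for DBP against control, and 3 higher and 1 lower with a median of -0.0174 for combined against control. Combined against DBP then had a median of -0.15 and 3 lower, and combined against DiBP a median of -0.13, 3 higher and 7 lower. Counts printed in this paragraph without a share of all loci are not to be read as results about the members. A scaling moves members and all loci together. The members' median less that of all loci was taken over all settings, filters among them. It was 0.21 to 0.23 for DBP against control, 0.21 to 0.29 for DiBP, and -0.13 to -0.03 for the combined library. Both ends of the DiBP and combined ranges came from the filters, which move only the median of all loci. With no filter that median was 0 in both comparisons, and at 5 FPKM it was -0.0789 for DiBP and -0.1037 for the combined library. Depth is unknown, so FPKM give no counting error.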
